A study of Mus musculus with 16 samples.

Results

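The genes described are H19, Igf2 and 8 further genes of the insulin-like growth factor (IGF) axis: Igf1, Igf1r, Igf2r, Igfbp3, Igfbp4, Igfbp5, Igfbp6 and Igfbp7. They were taken by symbol as 10 genes of the 49139 with a symbol in the count tables, and each was followed over all 16 libraries. The list was chosen by family and by the GFP to mCherry differences of both days, H19 among the larger ones. Those differences are therefore given as a description, with no test.

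The study set tumour cells that survived attack by T cells against cells of the same tumour that were not targeted. Cells of 4T07, a mouse mammary carcinoma line derived from BALB/c mice, carried GFP or mCherry, were mixed 1:1, and 250000 of them were placed in the mammary fat pad of female hybrids of Balb/cJ and Bl6 mice. Jedi T cells, whose receptor recognises GFP, lacked PD1 (PD1KO), and 7M of them were given by tail vein on day 7 or day 15 of tumour growth, with harvest 7 days later. Total RNA of sorted cells was sequenced in 5 groups. They were GFP cells that survived in tumours given Jedi T cells on day 7 (n = 3 tumours), mCherry cells of the same tumours (n = 3), GFP cells that survived in tumours given Jedi T cells on day 15 (n = 3), mCherry cells of the same tumours (n = 3), and mCherry cells of control tumours (n = 4). The control tumours held no GFP cells and received no Jedi T cells. No harvest day or number of injected cells is recorded for them here, so their age cannot be compared with that of the other tumours. All groups are thus the same cell line in the same kind of host, and the mCherry cells of a mixed tumour grew beside cells under attack. No library holds GFP cells without Jedi T cells, so the reporter and the attack cannot be told apart. Day 7 libraries formed sequencing run 1 and all others run 2, so day and run cannot be told apart either.

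H19 and Igf2 lie beside each other in an imprinted domain. H19, a long non-coding RNA, is made from the maternal copy, and Igf2, a growth factor abundant before birth, from the paternal copy. A control region between them, bound by CTCF on the unmethylated maternal copy, directs shared enhancers to H19 there and to Igf2 on the other copy. The secreted factors IGF1 and IGF2 signal through the receptor IGF1R, IGF2R clears IGF2 from the cell surface without such signalling, and the IGF-binding proteins carry the factors outside cells. Igfbp7 encodes a relative with low affinity for IGFs that is abundant in vessel walls, and Igfbp3 is a common transcript of endothelium in many tissues.

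On GRCm38, with the gene models of GENCODE M21, H19 (ENSMUSG00000000031) spans chr7:142575529-142578143 on the minus strand. Igf2 (ENSMUSG00000048583) spans chr7:142650766-142666816 on the same strand, 72622 bases away. The antisense gene Igf2os overlaps Igf2, and Airn overlaps Igf2r (chr17:12682406-12769664) on the other strand. Whether reads were counted by strand was not given in the sources used here, so reads of these gene pairs cannot be told apart.

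An exon of H19 holds the precursor of miR-675, on the minus strand from chr7:142577064 to chr7:142577147, which links this non-coding RNA to mRNA targets. Its mature sequences from RefSeq (GRCm38.p6) are printed because they are a part of H19 that can pair with other RNAs. Capitals mark the seed, bases 2 to 8 from the 5′ end.
mmu-miR-675-5p: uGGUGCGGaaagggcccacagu
mmu-miR-675-3p: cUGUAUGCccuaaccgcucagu
The seeds of the 5p and 3p arms differ. The count tables have a gene entry of its own for Mir675, which had 0 counts in all 16 libraries, and so did Mir483, which lies within the Igf2 gene outside its exons. How the counting treated reads within a host gene was not given in the sources used here, so these zeros say nothing of the mature miRNAs.

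Promoter windows of RefSeq (GRCm38.p6), 250 bases before to 50 after an annotated start, were matched for 9 of the 10 genes. H19 was not among them. Windows are shown for 3 genes whose RNA differed between GFP and mCherry cells on both days: a start of Igf2 (chr7:142658755-142659054, minus strand, the one of 4 Igf2 windows with both motifs below), Igfbp3 (chr11:7213874-7214173, minus strand) and Igfbp7 (chr5:77407996-77408295, minus strand). Capitals mark matches on either strand to the GC box GGGCGG or to the core of the interferon-stimulated response element (TTTC and TTTC with 2 bases between).
Igf2: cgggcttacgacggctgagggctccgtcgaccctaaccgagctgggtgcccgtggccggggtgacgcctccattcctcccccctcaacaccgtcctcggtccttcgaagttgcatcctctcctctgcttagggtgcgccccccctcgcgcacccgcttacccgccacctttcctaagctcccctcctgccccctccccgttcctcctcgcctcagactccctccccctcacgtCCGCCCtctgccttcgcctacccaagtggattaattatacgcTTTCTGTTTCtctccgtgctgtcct
Igfbp3: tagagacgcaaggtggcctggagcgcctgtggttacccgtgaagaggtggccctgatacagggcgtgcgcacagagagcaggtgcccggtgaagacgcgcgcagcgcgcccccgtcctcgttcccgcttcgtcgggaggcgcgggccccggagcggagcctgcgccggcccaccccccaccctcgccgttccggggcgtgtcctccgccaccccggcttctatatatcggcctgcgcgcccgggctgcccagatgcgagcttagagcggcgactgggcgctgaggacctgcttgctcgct
Igfbp7: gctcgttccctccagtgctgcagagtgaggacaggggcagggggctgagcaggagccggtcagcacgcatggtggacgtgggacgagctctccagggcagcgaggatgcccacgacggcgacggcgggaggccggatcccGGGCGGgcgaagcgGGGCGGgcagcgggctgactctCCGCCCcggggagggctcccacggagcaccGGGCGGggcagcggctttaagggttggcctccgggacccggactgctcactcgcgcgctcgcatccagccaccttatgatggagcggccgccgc
The Igf2 window holds 1 GC box and 1 response element core, that of Igfbp7 holds 4 GC boxes, and that of Igfbp3 holds neither. The Igf2 window at chr7:142657447-142657746 held 2 GC boxes and no response element core, and the remaining Igf2 windows held neither motif. GC boxes occur in 35.7% of the 32851 promoter windows and response element cores in 3.44%. These shares are per window, whereas the Igf2 window shown was picked from 4 for its motifs. A match to the TATA box TATAAA (13.6% of windows) was found for Igfbp4 and Igfbp6, and none of the 9 genes had the interferon-gamma site (TTC and GAA with 3 bases between, 8.3% of windows). These are matches of letters only. No binding was measured.

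Libraries held 9412040 to 14535791 counts in day 7 GFP cells and 12942893 to 19970822 in day 7 mCherry cells. On day 15 they held 21183324 to 24880582 in GFP cells and 21832170 to 22248031 in mCherry cells, and the controls held 24367417 to 32808354. Levels are given as CPM, counts scaled to a common library size by TMM over the 16 libraries, and libraries are called by the numbers of the count columns. The epithelial keratin genes Krt8 and Krt18 and the mesenchymal filament gene Vim were abundant in every library. Krt5 and Krt14 were at or near 0 in most, and Epcam, an epithelial adhesion gene, was low at 0.569 to 2.64 CPM. Krt8 and Krt18 were lower in GFP than in mCherry cells of every mixed tumour. Krt18 had 90.3 to 129 CPM in day 7 GFP cells, against 267 to 464 CPM in mCherry cells. On day 15 it had 86.1 to 114 CPM in GFP cells, against 164 to 265 CPM in mCherry cells. Cdh1, an epithelial cadherin gene, was higher in GFP cells of every mixed tumour. Its levels were 23.95 to 28.3 against 6.09 to 7.44 CPM on day 7, and 28.6 to 38.0 against 12.4 to 14.3 CPM on day 15. Ptprc, which encodes CD45 of leukocytes, ranged from 0.746 to 1.83 CPM in day 7 GFP cells and from 4.82 to 10.3 CPM in day 7 mCherry cells. The day 15 range was 0.569 to 0.663 CPM for GFP cells and 0.974 to 1.47 CPM for mCherry cells, and controls had 1.56 to 3.52 CPM.

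H19 was low in most libraries and higher in GFP than in mCherry cells of all 6 mixed tumours. On day 7 it stood at 6.57, 6.42 and 6.74 CPM in GFP cells of tumours 2, 3 and 4, against 0.148, 0.888 and 0.310 CPM in mCherry cells of the same tumours. The GFP values lay within a narrow band and above all mCherry values. Behind them were 64, 86 and 103 counts in GFP cells and 3, 14 and 4 counts in mCherry cells. The GFP to mCherry ratio was 44.6 in tumour 2 (exact 95% counting interval 14.6 to 222), 7.23 in tumour 3 (4.08 to 13.8) and 21.8 in tumour 4 (8.24 to 81.3). Such intervals cover counting error only. The fitted log2 fold change was 3.96 (SE 0.44, n = 3 pairs, edgeR with the tumour as a block) and 4.92 without tumour 3. In a bulk sample, fewer cells that carry H19 and less H19 per cell cannot be told apart.

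On day 15 the spread of H19 was wide. GFP cells had 9.58, 2.41 and 37.7 CPM in tumours 1, 2 and 3, against 1.65, 1.16 and 2.24 CPM in mCherry cells. The lowest GFP value lay just above the highest mCherry value, and tumour 3 was highest and tumour 2 lowest in both colours. Ratios were 5.81 (4.07 to 8.49), 2.08 (1.27 to 3.48) and 16.8 (12.6 to 23.0) in tumours 1, 2 and 3. The log2 fold change was 2.84 (SE 0.42), and 1.88 without tumour 3. Controls had 0.928, 1.37, 1.29 and 1.71 CPM in libraries 1 to 4, within the range of the day 15 mCherry cells or just under it.

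Igf2 was more abundant than H19 in CPM and differed little on day 7. GFP cells had 19.7, 32.0 and 18.0 CPM in tumours 2, 3 and 4, against 14.5, 15.98 and 14.2 CPM in mCherry cells. The groups did not overlap, but the ratios were small, at 1.36 (1.13 to 1.64), 2.00 (1.71 to 2.35) and 1.27 (1.05 to 1.54). The log2 fold change was 0.62 (SE 0.17). It fell to 0.42 without tumour 3, a value that no longer passed the threshold used across all genes.

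On day 15 the level of Igf2 varied strongly between tumours, whereas the ratio between the colours did not. GFP cells had 164, 439 and 88.3 CPM in tumours 1, 2 and 3, against 40.2, 110 and 27.1 CPM in mCherry cells. The ratios were 4.09 (3.80 to 4.40), 4.00 (3.83 to 4.19) and 3.25 (2.97 to 3.57), and the log2 fold change was 1.92 (SE 0.09). Tumour 2 was highest and tumour 3 lowest in both colours, the reverse of the order of H19. Controls had 122, 14.6, 23.8 and 25.7 CPM in libraries 1 to 4, so that control library 1 exceeded every day 15 mCherry library and GFP library 3. In the authors' deposited table the log2 fold changes of H19 and Igf2 were 4.08 and 0.62 on day 7, and 2.57 and 1.92 on day 15.

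**Figure D1:**
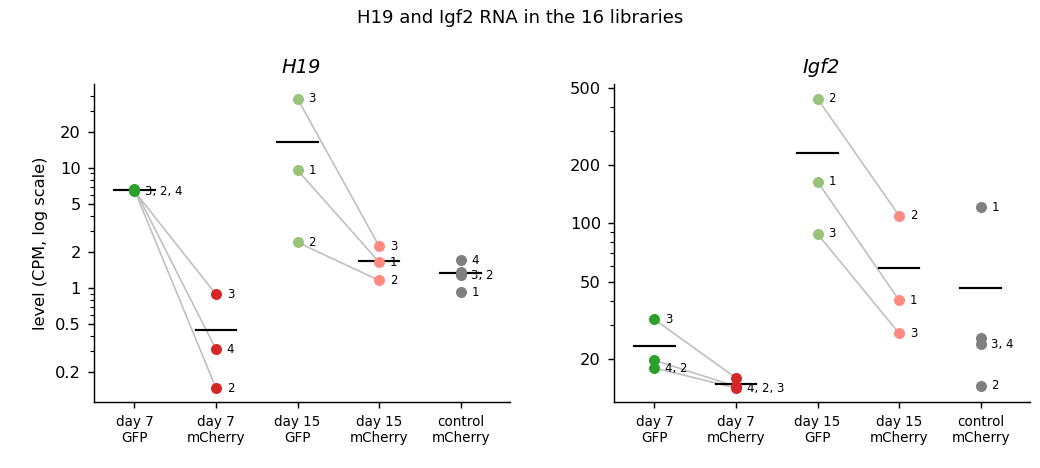
Levels of H19 (left) and Igf2 (right) in CPM on log axes, with 1 point per library labelled by its number, grey lines joining GFP and mCherry cells of 1 tumour, and black bars at group means. GFP points lie above their mCherry partners in all 6 tumours for both genes, and control library 1 stands at 122 CPM of Igf2.

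Igf1, the ligand made mainly by stromal and liver cells in the body, was near the lower end of detection. On day 7 it had 0.514, 0.672 and 0.327 CPM in GFP cells of tumours 2, 3 and 4 (5, 9 and 5 counts), against 2.61, 2.09 and 1.32 CPM in mCherry cells (53, 33 and 17 counts). The groups did not overlap, with a log2 fold change of -1.94 (SE 0.42). Day 15 levels of Igf1 were 2.60, 2.98 and 1.82 CPM in GFP cells, against 2.05, 2.60 and 2.19 CPM in mCherry cells, and 1.75 to 2.88 CPM in controls. These groups overlapped, with a log2 fold change of 0.10 (SE 0.26) between GFP and mCherry cells.

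The receptor genes showed little difference between the colours. Igf1r, the signalling receptor, averaged 89.7 ± 2.45 CPM in day 7 GFP cells and 89.4 ± 27.3 CPM in day 7 mCherry cells (SD, n = 3 each). The day 15 averages of Igf1r were 288 ± 25.6 CPM in GFP cells and 307 ± 15.5 CPM for mCherry cells, with 283 ± 24.1 CPM in the 4 controls. Igf2r averaged 143 ± 0.446 and 135 ± 15.5 CPM in day 7 GFP and mCherry cells, 570 ± 59.4 and 587 ± 15.2 CPM in day 15 GFP and mCherry cells, and 516 ± 42.5 CPM in controls. Both receptors were lower in every library of run 1 than in any of run 2, in either colour, and day and run cannot be told apart. Within days the log2 fold changes of the 2 receptors lay between -0.10 and 0.10, though that of Igf1r on day 7 was 0.30 without tumour 4.

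Among the binding proteins, Igfbp3 showed the largest difference. On day 7 it had 0.103, 0.373 and 0.262 CPM in GFP cells of tumours 2, 3 and 4, against 5.11, 5.77 and 13.2 CPM in mCherry cells. Only 1, 5 and 4 counts stood behind the GFP values, against 104, 91 and 170 counts in mCherry cells. The ratio of mCherry over GFP was 49.8 in tumour 2 (exact 95% counting interval 8.74 to 1985), 15.5 in tumour 3 (6.39 to 48.8) and 50.3 in tumour 4 (19.3 to 187). The log2 fold change of GFP over mCherry was -4.93 (SE 0.40), and -5.57 without tumour 3. On day 15 Igfbp3 had 2.70, 4.20 and 4.06 CPM in GFP cells of tumours 1, 2 and 3, against 36.7, 4.41 and 24.2 CPM in mCherry cells. Tumours 1 and 3 differed by ratios of mCherry over GFP of 13.6 (10.3 to 18.2) and 5.96 (4.79 to 7.47), whereas in tumour 2 the ratio was 1.05 (0.782 to 1.41). The log2 fold change was -2.22 (SE 0.51), and it was -3.12 without tumour 2, -1.44 without tumour 1 and -1.98 without tumour 3, the last no longer past the threshold. Controls had 9.09, 81.4, 19.7 and 18.1 CPM in libraries 1 to 4, all above the GFP libraries.

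Igfbp7 was lower in GFP cells of all 6 tumours, more evenly than Igfbp3. On day 7 it had 8.32, 6.79 and 8.58 CPM in GFP cells, against 25.2, 21.1 and 25.8 CPM in mCherry cells, with ratios of mCherry over GFP of 3.03, 3.10 and 3.01 in tumours 2, 3 and 4. The day 15 levels of Igfbp7 were 16.02, 42.7 and 17.3 CPM in GFP cells, against 57.0, 59.6 and 35.1 CPM in mCherry cells, with ratios of 3.56, 1.40 and 2.03 in tumours 1, 2 and 3. GFP library 2 exceeded mCherry library 3, so the groups overlapped on day 15. The log2 fold changes of GFP over mCherry were -1.59 (SE 0.16) on day 7 and -1.09 (SE 0.20) on day 15. Controls had 51.8, 66.7, 55.3 and 30.3 CPM in libraries 1 to 4.

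**Figure D2:**
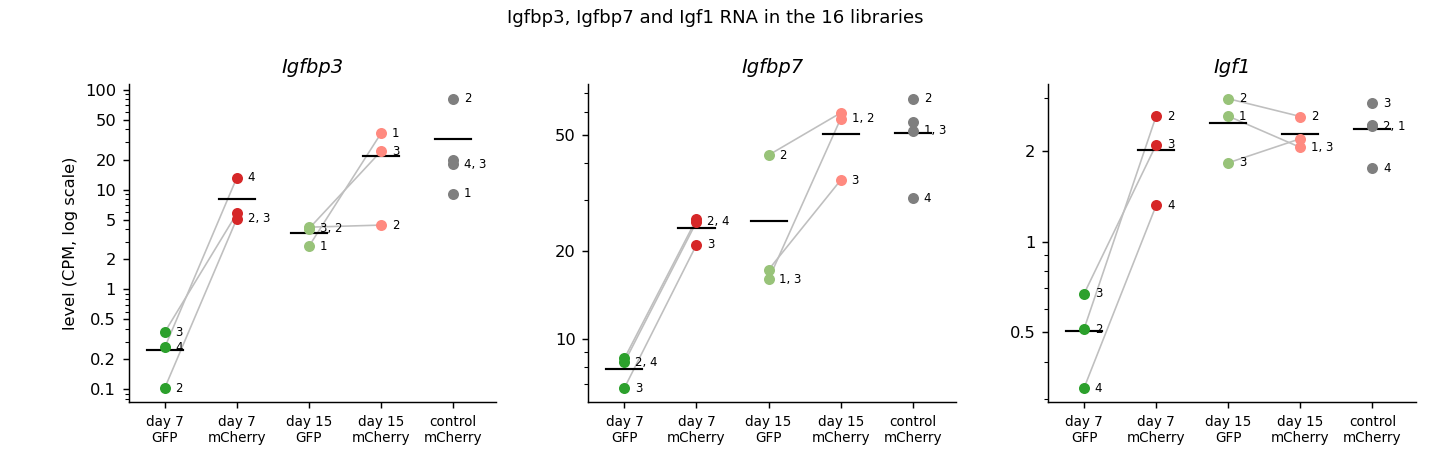
Levels of Igfbp3, Igfbp7 and Igf1 in CPM on log axes, drawn as for H19 and Igf2 with library numbers, joined tumours and group means. The day 7 GFP points of Igfbp3 lie at 0.103 to 0.373 CPM, below all other libraries, and tumour 2 of day 15 shows nearly level points for Igfbp3.

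Igfbp4, which encodes an IGF inhibitor cleaved by the protease pappalysin, was by far the most abundant member. It averaged 2120 ± 341 and 2230 ± 164 CPM in day 7 GFP and mCherry cells, 1975 ± 224 and 2279 ± 128 CPM in day 15 GFP and mCherry cells, and 2117 ± 86.4 CPM in controls. Its log2 fold change was -0.07 (SE 0.11) on day 7 and -0.21 (SE 0.09) on day 15. Igfbp6, a carrier that prefers IGF2, averaged 72.0 ± 15.5 and 68.8 ± 25.4 CPM in day 7 GFP and mCherry cells, 51.9 ± 7.82 and 49.8 ± 7.19 CPM in day 15 GFP and mCherry cells, and 53.0 ± 25.3 CPM in controls. Its groups overlapped on both days. Igfbp5 was rare and had 11, 2 and 0 counts in day 7 GFP cells, against 6, 4 and 3 counts in day 7 mCherry cells, too few to enter the fit of that day. Its day 15 average was 2.24 ± 0.754 CPM for GFP cells and 1.62 ± 0.336 CPM for mCherry cells, with 1.66 ± 0.947 CPM in controls.

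Per kilobase of exon, Igfbp4 stood first in every group, at 480 ± 77.2 CPM per kb in day 7 GFP cells, 505 ± 37.0 in day 7 mCherry cells, 447 ± 50.8 in day 15 GFP cells, 516 ± 28.9 in day 15 mCherry cells and 479 ± 19.6 in controls, with no overlap with the next gene. Igf1 and Igfbp5 were among the lowest. Igf2 reached 40.3 ± 32.2 CPM per kb in day 15 GFP cells, where it overlapped both Igfbp6 and Igfbp7, against 10.3 ± 7.75 in day 15 mCherry cells. H19 had 6.73 ± 7.58 CPM per kb in day 15 GFP cells and 0.684 ± 0.220 in day 15 mCherry cells, below Igf2 on average in both.

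In the within-day fits, 5 of the 9 members tested on day 7 had an adjusted p under 0.05 (H19 and Igf2 higher in GFP cells, Igf1, Igfbp3 and Igfbp7 lower), where 18.2% of all 14578 genes tested did, 8.89% higher and 9.33% lower. On day 15 it was 4 of 10 (H19 and Igf2 higher, Igfbp3 and Igfbp7 lower), where 19.5% of 14260 genes did, 8.94% higher and 10.6% lower. Of all genes tested, 24.5% were higher and 27.5% lower in GFP cells of every day 7 tumour, and 27.3% were higher and 27.6% lower in every day 15 tumour. Groups did not overlap for 15.9% of genes with the higher level in day 7 GFP cells and for 18.2% with the lower, and on day 15 for 17.3% with the higher. The members were chosen with these contrasts in view, so nothing is read from their counts. Without the tumour block the day 15 count was 2, H19 and Igfbp3.

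**Figure D3:**
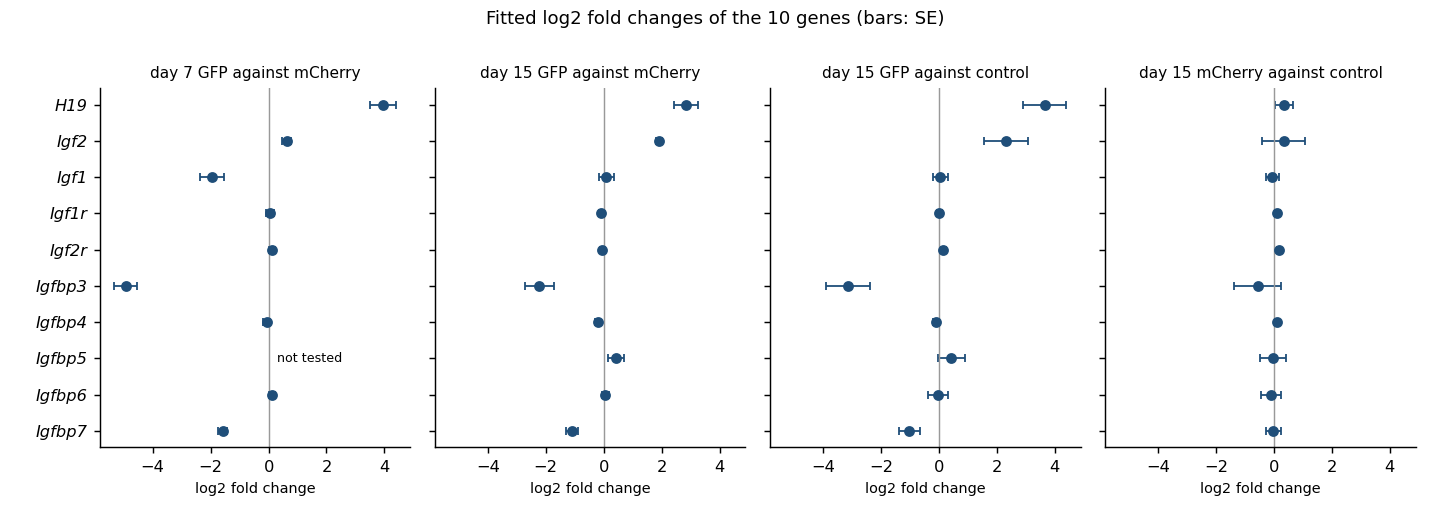
Fitted log2 fold changes of the 10 genes (points, bars SE) in 4 comparisons, with GFP or Jedi-exposed cells over the cells they are set against. H19 and Igf2 lie to the right and Igfbp3 and Igfbp7 to the left in the 3 panels of GFP cells, whereas the receptors, Igfbp4 and Igfbp6 lie near 0 throughout.

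The GFP effect was also compared between the days, as a description, with day and run inseparable. The log2 fold change on day 15 minus that on day 7 was 1.29 (SE 0.18) for Igf2, 2.04 (SE 0.47) for Igf1, 2.74 (SE 1.03) for Igfbp3, 0.50 (SE 0.28) for Igfbp7 and -1.16 (SE 0.78) for H19. Igf2 was the 1 of 10 members with an adjusted p under 0.05, where 0.211% of 16626 genes did, 0.102% with the larger effect on day 15 and 0.108% with the smaller. Igf2 no longer passed without the tumour block, or without tumour 2 of day 7 or tumour 1 or 2 of day 15. The value of H19 was -2.16 without tumour 3 and -0.64 without tumour 2 of day 7, and -2.09 without tumour 3 and -0.57 without tumour 2 of day 15. Without tumour 2 of day 15, Igfbp3 stood at 1.81 and Igfbp7 at 0.17, and without tumour 1 of day 15 Igfbp7 stood at 0.85. This difference is built from the same contrasts that chose the members, so nothing is read from the call of Igf2.

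The mCherry cells of day 15 tumours were set against the controls to ask whether cells beside the attack differed from cells of unexposed tumours. This contrast itself did not choose the members, but its mCherry libraries entered the differences that did. Its p-values are thus not independent of that choice. None of the 10 members passed an adjusted p of 0.05 in edgeR's quasi-likelihood test, where 0.00% of 14800 genes did, and DESeq2 called 262 genes and none of the 7 members to which it gave an adjusted p, H19, Igf1 and Igfbp5 having none. At an unadjusted p under 0.05 there were 1 member and 2104 genes. That member was Igf2r, at 587 ± 15.2 CPM in day 15 mCherry cells (n = 3) and 516 ± 42.5 CPM in controls (n = 4), with a log2 fold change of 0.18 (SE 0.08, edgeR adjusted p = 0.346). H19 had a log2 fold change of 0.34 (SE 0.31, edgeR adjusted p = 0.622) and Igf2 of 0.34 (SE 0.74, edgeR adjusted p = 0.858), and that of Igf2 was 1.45 without control library 1 and -0.46 without mCherry library 2. Igfbp3 had -0.56 (SE 0.81, edgeR adjusted p = 0.767), and 0.48 without control library 2. For Igf2 and Igfbp3 the SE was larger than the fold change itself.

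Day 15 GFP cells set against the same 4 controls gave a log2 fold change of 3.65 (SE 0.76) for H19, 2.31 (SE 0.76) for Igf2, -3.13 (SE 0.75) for Igfbp3 and -1.01 (SE 0.37) for Igfbp7. The other 6 members lay between -0.10 and 0.43. In edgeR 2 of 10 members, H19 and Igfbp3, had an adjusted p under 0.05, where 13.1% of 14801 genes did, 6.09% higher and 6.97% lower. Groups did not overlap for 14.7% of genes with the higher level in GFP cells and for 15.2% with the lower. The GFP libraries are those whose values chose the members, so no p is given. H19 no longer passed without GFP library 1 or control library 3, and it stood at 2.18 without GFP library 3. Igfbp3 no longer passed without any 1 of the GFP libraries or without control library 3, and it stood at -2.09 without control library 2. Igf2 stood at 1.45 without GFP library 2, and at 3.43 without control library 1, where it passed. Igfbp7 stood at -1.61 without GFP library 2, where it passed too.

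No relation between H19 and Igf2 that could be tested across tumours passed. Over the mCherry libraries of 10 tumours, Pearson's r of log2 CPM was 0.33 (permutation p = 0.357, two-sided, 0.476 after Benjamini and Hochberg adjustment over 4 relations) and Spearman's rho was 0.45 (permutation p = 0.189, adjusted 0.378). The 3 libraries of run 1 were lowest in H19 (-2.05 to -0.03 log2 CPM, against 0.03 to 1.22 in run 2), and the sign of r did not hold within run 2 or without the 2 tumours farthest from the median of H19, where it was -0.27. Within run 2, r was -0.61 (n = 7 tumours, exact permutation p = 0.152, adjusted 0.305) and rho was -0.43 (exact permutation p = 0.354, adjusted 0.471), with r at -0.39 without the 2 farthest. The 3 mCherry libraries of run 1 were too few for a coefficient.

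For GFP cells the relation was computed, but it is a description only. Over 6 tumours r was -0.18 in the GFP libraries and -0.72 for the GFP minus mCherry log2 difference, with rho at -0.14 and -0.83. Neither passed, and both were among the 4 relations adjusted. Without the 2 tumours farthest from the median of the H19 values, r was 0.94 in the GFP libraries and -0.47 for the difference. The Igf2 levels of the GFP libraries, and the GFP to mCherry ratios of Igf2 (1.27 to 2.00 on day 7 and 3.25 to 4.09 on day 15), did not overlap between the days, and 3 tumours per day are too few for a coefficient within a day. Tumours 2 and 4 of day 7 had the largest H19 ratios and the smallest Igf2 ratios.

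**Figure D4:**
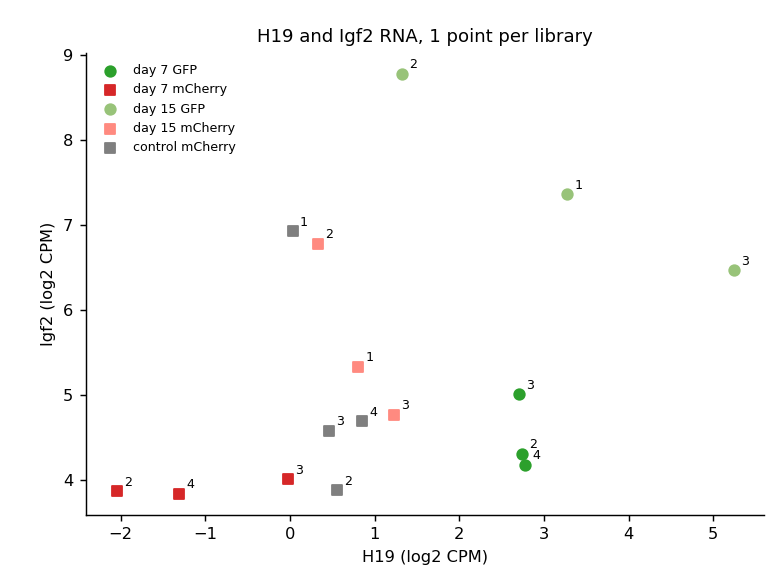
Igf2 against H19 in log2 CPM, 1 point per library labelled by its number, circles for GFP and squares for mCherry cells. The day 15 points run from tumour 2 (Igf2 high, H19 low) to tumour 3 in both colours, and the day 7 points of each colour lie lower in Igf2.

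Markers of other cell types moved with some of these genes. The summed level of 12 endothelial markers was 11.2 to 12.7 CPM in day 7 GFP cells and 38.7 to 71.9 CPM in day 7 mCherry cells. All 10 of the markers tested were lower in GFP cells at an adjusted p under 0.05, where 9.33% of all genes were. Markers with few counts in GFP cells, such as Pecam1 (2, 6 and 10 counts), entered this fit only through the mCherry cells. The count of markers called is thus a description. On day 15, 4 of 12 were lower, where 10.6% of all genes were. The sum was then 15.7 to 20.9 CPM in GFP cells and 21.6 to 48.1 CPM in mCherry cells, and it was 23.1 to 104 CPM in controls. The libraries lowest and highest in this sum were also lowest and highest in Igfbp3 among the mCherry cells of day 7 (libraries 2 and 4) and day 15 (libraries 2 and 1), and among the controls (libraries 1 and 2). This did not hold in GFP cells. On day 7, GFP library 2 was highest in the sum (12.7 CPM) and lowest in Igfbp3 (0.103 CPM, 1 count). On day 15, GFP library 3 was highest in the sum (20.9 CPM) and library 2 in Igfbp3 (4.20 CPM). Of 11591 genes compared over the 16 libraries, Pecam1, which encodes an endothelial adhesion molecule, was the most like Igfbp3 (Pearson's r = 0.95 of log2 CPM), followed by Itih2 and Pitpnc1 (0.94 each). In mCherry library 2 of day 15, where Igfbp3 was nearly level with its GFP partner, Pecam1 was at 1.72 CPM, against 6.60 and 5.50 CPM in mCherry libraries 1 and 3. The part of endothelial RNA in the result for Igfbp3 was not tested.

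**Figure D5:**
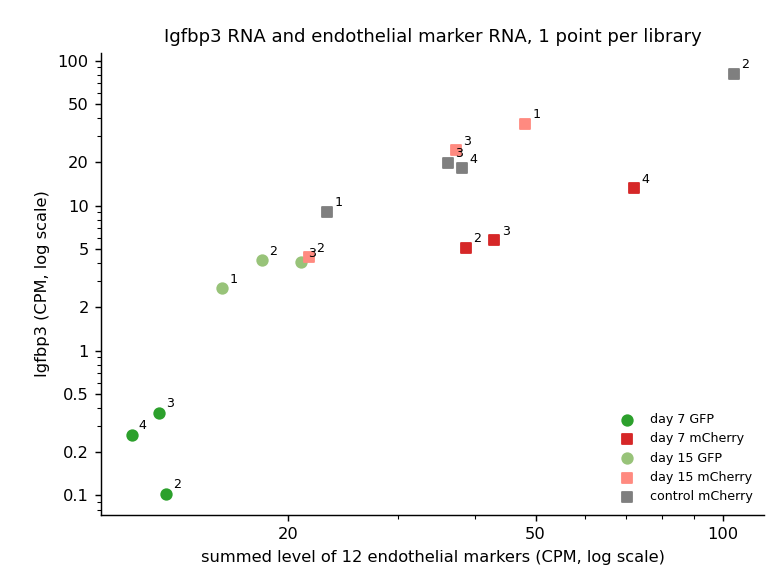
Igfbp3 against the summed level of 12 endothelial markers, both in CPM on log axes, 1 point per library. Control library 2 is highest in both, the 3 day 7 GFP libraries are lowest in both, and the day 7 mCherry libraries lie under the run 2 libraries of similar marker sums.

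The summed level of 14 macrophage and monocyte markers was 120 to 199 CPM in day 7 GFP cells and 694 to 1010 CPM in day 7 mCherry cells. All 14 were lower in GFP cells at an adjusted p under 0.05, where 9.33% of all genes were. This difference stood beside those of Igf1 and Igfbp7 on that day. On day 15 the sum was 59.9 to 80.6 CPM in GFP cells and 94.1 to 117 CPM in mCherry cells, and it was 85.9 to 218 CPM in controls. Of the markers tested on day 15, 6 of 11 were lower in GFP cells, where 10.6% of all genes were. The log2 fold change of Igf1 on day 15 was 0.10 (SE 0.26). In mCherry cells the macrophage sum was lower on day 15 than on day 7. Igfbp7 was higher there, at 35.1 to 59.6 CPM on day 15 against 21.1 to 25.8 CPM on day 7, with day and run inseparable. None of the markers of either list was at 0 in every library of a group. The genes most like Igfbp7 were Arhgap31 (r = 0.97), which encodes a GTPase-activating protein, Cerk (0.96), which encodes ceramide kinase, and Cd163 (0.95), a macrophage scavenger receptor gene. The part of macrophage RNA in the results for Igf1 and Igfbp7 was not tested. Both marker lists were lower in GFP cells, where H19 and Igf2 were higher. The part of RNA of other cell types in the results for H19 and Igf2 was not tested. Of the fibroblast markers, 2 of 7 tested were lower on day 7, where 9.33% of all genes were. On day 15 Dcn was higher and 4 of 9 were lower, where 8.94% of all genes were higher and 10.6% lower. The median log2 fold change of the fibroblast markers tested was -1.15 on day 7 and -1.53 on day 15. Summed levels of the list overlapped, at 762 to 815 CPM in day 7 GFP cells and 719 to 938 CPM in day 7 mCherry cells. On day 15 they were 1406 to 1533 CPM in GFP cells and 1050 to 1539 CPM in mCherry cells. Dcn alone held 687 to 768 CPM of the day 15 GFP sums and 269 to 351 CPM of the day 15 mCherry sums.

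Markers of division moved as well. All 6 division genes (Mki67, Top2a, Plk1, Ccnb1, Bub1 and Cdk1) were lower in GFP cells on each day at an adjusted p under 0.05, where 9.33% (day 7) and 10.6% (day 15) of all genes were. Their median log2 fold change was -0.88 on day 7 and -1.10 on day 15, where the medians of all genes tested were -0.0037 and 0.0065. Their part in the results for H19 and Igf2 was not tested.

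Over the 16 libraries, genes most like H19 included Tdrd7 and Bcar3 (r = 0.88 each), Dse (0.87) and Ap3m2 (0.87). Those most like Igf2 were Errfi1, which encodes an inhibitor of EGF receptor signalling, and Islr (0.93 each), Esm1 (0.92), Klf6 (0.91) and the imprinted gene Impact (0.90). These coefficients span both runs and all groups and are descriptions. Neither list held the other gene of the pair.

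Of 10 neighbours and hosted RNAs of the domain, 5 were abundant enough to test. Igf2os, antisense to Igf2, had 10.8, 15.5 and 4.15 CPM in day 15 GFP cells of tumours 1, 2 and 3, against 4.86, 5.06 and 2.66 CPM in mCherry cells, with a log2 fold change of 1.18 (SE 0.21). In GFP cells its order of tumours was that of Igf2. Syt8, a synaptotagmin gene beyond H19 in the same direction from Igf2, had 59.8, 60.9 and 49.7 CPM in day 7 GFP cells of tumours 2, 3 and 4, against 14.7, 7.23 and 13.3 CPM in mCherry cells. Syt8 on day 15 stood at 67.1, 58.9 and 60.9 CPM in GFP cells of tumours 1, 2 and 3, against 22.1, 24.6 and 26.9 CPM in mCherry cells. Its log2 fold changes were 2.33 (SE 0.21) and 1.35 (SE 0.11), with no overlap of the colours on either day. Lsp1, which encodes a leukocyte cytoskeletal protein and lies between Syt8 and H19, was higher in GFP cells on day 7 (0.46, SE 0.10). Counts of called neighbours were 2 of 5 higher on each day, with medians of 0.46 and 0.63, where 8.89% and 8.94% of all genes were higher.

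Of 28 other imprinted genes, 9 were abundant enough to test on day 7 and 12 on day 15. On day 7, 0 were higher and 1 lower, where 18.2% of all genes were called, with a median log2 fold change of -0.04. The lower gene was Gatm, which encodes an enzyme of creatine synthesis and is imprinted in placenta (log2 fold change -3.02, SE 0.18). On day 15, 2 were higher and 2 lower, where 19.5% of all genes were called, with a median of 0.02. The largest of these was Meg3, a maternally expressed non-coding RNA of another imprinted domain, at 0.492, 0.0437 and 0.0415 CPM in GFP cells of tumours 1, 2 and 3, against 3.39, 0.0464 and 2.10 CPM in mCherry cells. Its log2 fold change was -3.32 (SE 0.61), and as with Igfbp3 the colours were level in tumour 2, where both libraries held few counts. Grb10, which encodes an adaptor that restrains insulin and IGF receptor signalling, averaged 0.173 ± 0.201 CPM in day 15 GFP cells and 0.787 ± 0.517 CPM in day 15 mCherry cells (-2.27, SE 0.62). Against the controls, day 15 GFP cells had 1 higher and 3 lower of 15 tested, where 13.1% of all genes were called, led by Rian (-5.28, SE 1.30) and Meg3 (-5.08, SE 1.39), which share a domain. Meg3 stood at 0.672, 18.4, 2.03 and 3.87 CPM in control libraries 1 to 4, and the endothelial gene Pecam1 at 2.24, 16.2, 3.62 and 4.59 CPM, in the same order. Grb10 followed this order of the controls as well, and among the day 15 mCherry libraries Meg3, Grb10 and Pecam1 were each highest in library 1 and lowest in library 2. The part of endothelial RNA in the results for these imprinted genes was not tested.

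Beyond the members, 36 genes of IGF transport, processing and signalling were followed. On day 7, 5 were higher and 2 lower in GFP cells among 29 tested, where 18.2% of all genes were called, with a median log2 fold change of 0.05. On day 15, 3 were higher and 4 lower among 30, where 19.5% of all genes were called, with a median of 0.02. Stc1, which encodes the secreted glycoprotein stanniocalcin, was lower in GFP cells on both days. It had 11.6, 11.7 and 5.11 CPM in day 7 GFP cells, against 74.8, 38.6 and 55.7 CPM in mCherry cells, and 3.24, 14.5 and 4.56 CPM in day 15 GFP cells, against 54.1, 37.0 and 36.1 CPM in mCherry cells. The log2 fold changes were -2.57 (SE 0.26) and -2.67 (SE 0.38).

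The other genes of this list moved less. Htra1, which encodes a secreted protease known to cleave IGF-binding proteins, was abundant and higher in GFP cells, at 1434 ± 89.0 CPM against 848 ± 53.1 CPM in mCherry cells on day 7 (log2 fold change 0.77, SE 0.11). The day 15 averages of Htra1 were 1163 ± 164 CPM in GFP cells and 856 ± 154 CPM for mCherry cells (0.45, SE 0.09). Pappa, the gene of pappalysin, was at 0 to 0.298 CPM in all 16 libraries, and its relative Pappa2 was at 1.54 to 11.6 CPM. Insr, the insulin receptor gene, was higher on day 7 (0.50, SE 0.09), and Foxo1, a transcription factor restrained by insulin and IGF signalling, was lower on both days (-0.76, SE 0.14, and -0.63, SE 0.10). On day 15 Irs1, an adaptor of the receptors, was lower in GFP cells (-0.69, SE 0.14) and its relative Irs2 was higher (0.56, SE 0.10). Against the controls, day 15 GFP cells had 2 higher and 2 lower of 32 tested (13.1% of all genes were called), led by Stc1 (-2.70, SE 0.62) and Irs1 (-0.98, SE 0.19), and day 15 mCherry cells had none of 31.

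Of 12 known regulators of the domain, 9 were tested on each day. On day 7, 1 was higher and 1 lower in GFP cells, where 18.2% of all genes were called. On day 15, 1 was higher and 2 lower, where 19.5% of all genes were called. Median log2 fold changes of the list were 0.09 and -0.01. Uhrf1, needed to maintain DNA methylation at division, was lower in GFP cells on both days (-0.58, SE 0.12, and -0.98, SE 0.13), beside the lower division genes. Dnmt1, the maintenance methyltransferase gene, was lower on day 15 (-0.53, SE 0.11), at 147 ± 20.5 CPM in these GFP cells and 211 ± 13.2 CPM in their mCherry cells. Hmga2, a chromatin protein gene of growing cells, was higher on day 7 (0.71, SE 0.15), and Zfp57, which encodes a factor that protects imprints, was higher on day 15 (0.34, SE 0.09). No methylation was measured.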

How the data were processed

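RNA of sorted cells was sequenced in 16 libraries. The raw counts per gene were deposited by the authors and made by a sequencing company, per the labels' protocols, with mm10 as the build named in the submitters' processing notes. RNA was extracted with a kit or by the company's low-input protocol, and which library had which was not given in the sources used here, nor were the aligner, the counter, strand handling or the gate on CD45. The authors' deposited tables for each day hold log2 fold changes, baseMean (a signal, the mean of normalized counts), the Wald score and p-values with adjusted p-values, made with DESeq2 per the submitters' processing notes.

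Results were computed from the counts. Of 49315 genes per table, 176 without a symbol (at most 0.0110% of a library's counts) were left out. The filter was filterByExpr with a minimum count of 10 and a minimum total of 15. TMM scaling followed, and the genes were fitted with edgeR 4.0.16 quasi-likelihood tests in R 4.3.3, adjusted over all genes tested by Benjamini and Hochberg, with a threshold of 0.05. The tumour was a block within each day, which left 2 residual degrees of freedom. The comparisons with controls had no block and share the 4 control libraries. SEs were derived from the F statistics and log2 fold changes. Correlations used log2 CPM (prior count 2) and permutations over pairings (exact, or 100000 resamples for 10 tumours). Intervals of ratios are exact 95% intervals of counts. Gene models were GENCODE M21.

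The day 7 count columns carry the numbers 2 to 4 where the labels have 1 to 3. For this reason day 7 and control columns were matched as groups, and tumour numbers in the text are column numbers. Before fits were compared, residuals of GFP and mCherry libraries of the same number correlated at 0.110 to 0.158 on day 7 (other numbers -0.126 to 0.00670) and at 0.0901 to 0.232 on day 15 (-0.183 to 0.0186). For day 15 the pairing follows the tumour numbers of the labels. Counts of libraries of 1 group differed beyond counting error (chi-square per degree of freedom 5.34 to 92.1). The labels describe separate tumours.

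The members, gene lists, marker lists and tests were chosen with earlier results of these data known. Named were all 10 members, the 5 genes most like H19 and Igf2 and the 3 most like Igfbp3 and Igfbp7 (among genes whose mean log2 CPM was 1 or more), and of each list the 2 called genes of largest change per comparison. One gene that this rule names is not reported here. Other genes named were chosen after their values were seen. Results were recomputed with DESeq2 1.42.0, with DESeq2 size factors, with other filters, with no block, without each tumour or library, in a joint fit of run 2, with a prior count of 0.5 and with library size alone. The scripts were tested on simulated data.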

Additional observations from a re-analysis of the deposited data

Results flagged for a closer look

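In the control tumours, Igf2 stood at 121.58 CPM in library 1, far from the other 3 libraries (14.6 to 25.7 CPM). The gap to the next library was 0.896 of the range, above the 95% critical value of Dixon's test for 4 libraries.

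Igfbp3 stood at 81.4 CPM in control library 2, against 9.09 to 19.7 CPM in the other 3, with a gap of 0.853 of the range. The summed endothelial markers of the same library were at 104 CPM, against 23.1 to 38.0 CPM in the others. The 10 members were each looked at in the controls only, since the other groups have 3 libraries, and chance flags about 1 in 20 such groups.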

How the results depend on the processing

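Of the 468 refits of 49 member values under alternatives, 416 kept their direction and side of the threshold. On day 15, members called between GFP and mCherry cells numbered 2 with no replicate block (4 with it). For day 15 GFP cells against controls they numbered 4 with no filter on low counts (2 with it), and 0 to 3 on leaving out each library: H19 was lost without GFP library 1 or control library 3, and Igfbp3 without any 1 GFP library or control library 3. For the difference between days the number was 0 with no replicate block and 0 to 1 on leaving out each tumour, with Igf2 lost in 3 of those fits. Leaving out each tumour gave 4 to 6 members on day 7 and 3 to 4 on day 15, and each library 0 for day 15 mCherry cells against controls. Between GFP and mCherry cells, Igfbp3 was lost on day 15 in DESeq2 or without tumour 3, and on day 7 Igf2 was lost with no replicate block or without tumour 3 and Igf1r was called without tumour 4. The causes were not tested.

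Signs turned on leaving out 1 tumour or library only among log2 fold changes that had not passed the threshold. For GFP against mCherry cells these ranged from -0.062 to 0.30 (Igf1r) and -0.14 to 0.020 (Igfbp4) on day 7, and -0.022 to 0.27 (Igf1) and -0.058 to 0.24 (Igfbp6) on day 15. For day 15 mCherry cells against controls they ranged from -0.18 to 0.034 (Igf1), -0.46 to 1.45 (Igf2), -1.18 to 0.48 (Igfbp3), -0.28 to 0.28 (Igfbp5), -0.30 to 0.12 (Igfbp6) and -0.20 to 0.18 (Igfbp7). For day 15 GFP cells against controls they ranged from -0.10 to 0.24 (Igf1), -0.037 to 0.096 (Igf1r) and -0.23 to 0.18 (Igfbp6). For the difference between days they ranged from -0.64 to 2.12 (Igfbp5, 0.00079 with no replicate block) and -0.19 to 0.11 (Igfbp6). The coefficient of H19 with Igf2 over all 10 mCherry libraries was 0.33, and it was -0.61 in run 2 alone, -0.27 without the 2 tumours farthest from the median of H19, -0.18 in the GFP libraries, whose Igf2 levels did not overlap between days, and -0.39 after centring on the group means. Under library size alone 47 of 50 group means stayed within 1 SD, and in day 7 GFP cells H19 moved to 6.77, Igf1r to 92.4 and Igf2r to 147 CPM. Few counts limit Igfbp3 in day 7 GFP cells, Igf1 and Igfbp5.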

Other observations

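Pdgfrb, which encodes a growth factor receptor of pericytes and fibroblasts, was highest in the library highest in Igf2 in each group but the day 7 mCherry cells. Its day 7 levels were 20.1, 22.2 and 15.8 CPM in GFP cells of tumours 2, 3 and 4, and 17.3, 24.1 and 24.6 CPM in mCherry cells. Igf2 was highest in tumour 3 in both colours of day 7. Pdgfrb had 42.1, 94.5 and 43.6 CPM in day 15 GFP cells of tumours 1, 2 and 3, and 54.5, 82.3 and 65.2 CPM in day 15 mCherry cells. Controls had 79.7, 35.7, 55.9 and 20.2 CPM in libraries 1 to 4. No other pericyte marker was highest in the libraries highest in Igf2 in all 3 groups of run 2. Notch3 was so in day 15 GFP cells (13.2 CPM in library 2) and day 15 mCherry cells (23.1 CPM in library 2), but among the controls it stood at 25.5 CPM in library 1 and 27.9 CPM in library 2. Rgs5, for example, was at 0.525 CPM in day 15 GFP library 2, between 0.442 and 1.74 CPM in GFP libraries 1 and 3, and at 0.544 CPM in control library 1, the lowest of the controls. Krt8 and Krt18 were lowest in control library 1 among the controls (447 and 160 CPM) and in GFP library 2 among the day 15 GFP cells (332 and 86.1 CPM), but among the day 15 mCherry cells library 2 lay between the others (563 and 195 CPM) and library 3 was lowest (445 and 164 CPM). Pdgfrb and the keratins were picked after their values were seen, and their part in the level of Igf2 was not tested.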
